A study of Mus musculus with 45 samples.

Results

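The 8 genes described here, Cmah, St6gal1, St3gal1, St3gal4, St3gal6, Gcnt1, C1galt1 and Galnt10, encode enzymes that build the sialic acids and the O-linked sugar chains of the cell surface. They were taken by symbol from a raw count table of 55450 genes. They were chosen by their role in making the surface glycans of germinal center cells, with the levels of genes across these 8 groups already known, and which of those levels weighed in the choice is not recorded. Their differences between sorted populations are therefore given as a description without a test. The study sorted 4 lymphocyte populations from the draining popliteal lymph nodes of mice lacking the sphingosine-1-phosphate receptor S1PR4 (KO) and of wildtype (WT) littermates, and asked whether loss of the receptor changed gene expression in each. The KO animals carried the S1pr4tm1Dgen allele (strain B6.129P2-S1pr4tm1Dgen/J), a germline allele, and had been backcrossed to C57/BL6 for at least 10 generations, and WT animals came from the same colony. All mice, of both sexes and 8 to 12 weeks old, received ovalbumin (50 µg) and lipopolysaccharide (5 µg) in 20 µL of Freund's incomplete adjuvant emulsion into the hind footpad, so no group was without immunization.

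Germinal center (GC) B cells (B220+ GL7+ Fas+) and non-GC B cells (B220+ GL7- Fas-) were sorted on day 9, and T follicular helper (Tfh) cells (TCRβ+ CD4+ PD1+ CXCR5+) and non-Tfh cells (TCRβ+ CD4+ PD1- CXCR5-) on day 6. There were 6 libraries in each group except non-GC B WT (5) and non-GC B KO (4), 45 in all. B and T cells therefore differed in day as well as in lineage. The methods give 6 immunized mice of each genotype for the sorts, as many as the libraries in most groups, but neither they nor the labels tie a library to a mouse, so the p-values measure the spread between these libraries, part of which may be technical. In bulk RNA, a smaller share of cells expressing a gene and less RNA of it per cell cannot be told apart.

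Sialic acids cap the outer ends of sugar chains, where they mask the sugars beneath them and are read by lectins such as CD22 and Siglec-G. CMAH turns the sialic acid Neu5Ac into Neu5Gc. ST6GAL1 attaches sialic acid in α2,6 linkage, mostly to N-glycans, and ST3GAL1, ST3GAL4 and ST3GAL6 attach it in α2,3 linkage. O-glycans start when a GALNT enzyme such as GALNT10 adds GalNAc to serine or threonine. C1GALT1 then adds galactose to form core 1, and GCNT1 adds the branch that makes core 2, while ST3GAL1 caps core 1 with sialic acid. In the mouse, the GL7 antibody that marks GC B cells binds a glycan ending in α2,6-linked Neu5Ac and not in Neu5Gc, so the sort of the B cells used a structure that CMAH and ST6GAL1 make or remove.

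The start regions of C1galt1, Cmah and Gcnt1 are printed because these genes had unlike patterns across the 8 groups. C1galt1 levels divided by lineage with little difference inside a lineage. Cmah was lower in GC B and Tfh cells than in their counterparts, and Gcnt1 had the widest difference within a lineage. Each printed region is the 250 bases before the most upstream RefSeq start (GRCm38.p6, the patch release of mm10), 5′ to 3′ on the gene's strand. Capitals mark the E-box CAGGTG or the GC box GGGCGG on either strand; the forkhead motif GTAAACA and the BCL6 motif TTCCTNGAA were searched too. The windows were chr6:7844974-7845223 (plus strand) for C1galt1, chr13:24327154-24327403 (plus strand) for Cmah and chr19:17372845-17373094 (minus strand) for Gcnt1.
C1galt1: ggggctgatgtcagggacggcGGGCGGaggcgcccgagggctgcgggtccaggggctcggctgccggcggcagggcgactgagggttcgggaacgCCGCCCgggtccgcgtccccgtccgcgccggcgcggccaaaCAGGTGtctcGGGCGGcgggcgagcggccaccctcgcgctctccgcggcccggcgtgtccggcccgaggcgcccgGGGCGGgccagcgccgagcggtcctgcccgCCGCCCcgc
Cmah: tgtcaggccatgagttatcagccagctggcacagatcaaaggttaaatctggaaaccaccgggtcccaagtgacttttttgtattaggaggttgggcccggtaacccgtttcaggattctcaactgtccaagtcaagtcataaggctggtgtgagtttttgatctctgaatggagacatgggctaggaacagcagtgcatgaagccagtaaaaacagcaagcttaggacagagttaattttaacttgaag
Gcnt1: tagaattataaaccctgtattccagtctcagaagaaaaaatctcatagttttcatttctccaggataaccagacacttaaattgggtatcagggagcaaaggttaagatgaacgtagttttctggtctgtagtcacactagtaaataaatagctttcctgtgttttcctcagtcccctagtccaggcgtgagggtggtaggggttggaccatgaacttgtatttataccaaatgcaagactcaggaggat
The C1galt1 window had a GC content of 82.8% and held 6 matches, 5 to the GC box and 1 to the E-box. The Cmah window had a GC content of 45.6% and the Gcnt1 window 40.4%, and neither held any of the 4 motifs. No motif overlapped another in the C1galt1 window. Of 32841 RefSeq windows of the same length, 32.7% held the GC box, 17.2% the E-box, 3.17% the forkhead motif and 1.31% the BCL6 motif. RefSeq windows were found for 7 of the 8 genes. The starts used for Cmah and Gcnt1 were also starts in GENCODE M21, and that for C1galt1 was not. GENCODE M21 starts C1galt1 further upstream, at chr6:7844842, so by that annotation the printed C1galt1 window lies inside the gene. Cmah and Gcnt1 have further starts downstream, and gene counts do not show which start these cells used.

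Total counts ran from 26299429 to 45548215 per library. S1pr4 itself had 0 to 40 counts in the KO libraries and 505 to 6305 in the WT libraries, so every library matched its genotype label. Lineage markers were found in the labelled lineage. Cd4 had group means of 741.7 to 1033 CPM in T cells (read counts scaled to library size with TMM factors over all 45 libraries), and the sum of 10 B cell markers had medians of 24180 to 54170 CPM in the B cell groups and 582 CPM or less in the T cell groups. The sum of 7 germinal centre B cell markers had a median of 1647 CPM in GC B WT and 1815 CPM in GC B KO, against 134.5 and 154.3 CPM in non-GC B WT and KO. Cxcr5 averaged 944.7 CPM in Tfh WT and 964.9 CPM in Tfh KO, against 16.1 and 20.5 CPM in non-Tfh cells. A small amount of B cell RNA was present in Tfh libraries: the B cell marker sum, as a share of its median in non-GC B cells, was 0.689% to 2.21% in Tfh WT and 0.22% to 1.23% in Tfh KO, and 0.0769% to 0.399% in non-Tfh cells. The GC B KO libraries were uneven in the sum of 6 plasma cell markers, at 5578, 8325 and 17640 CPM in replicates 1 to 3 and 2036, 2426 and 2058 CPM in replicates 4 to 6, against 3988 to 8758 CPM in GC B WT.

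**Figure D1:**
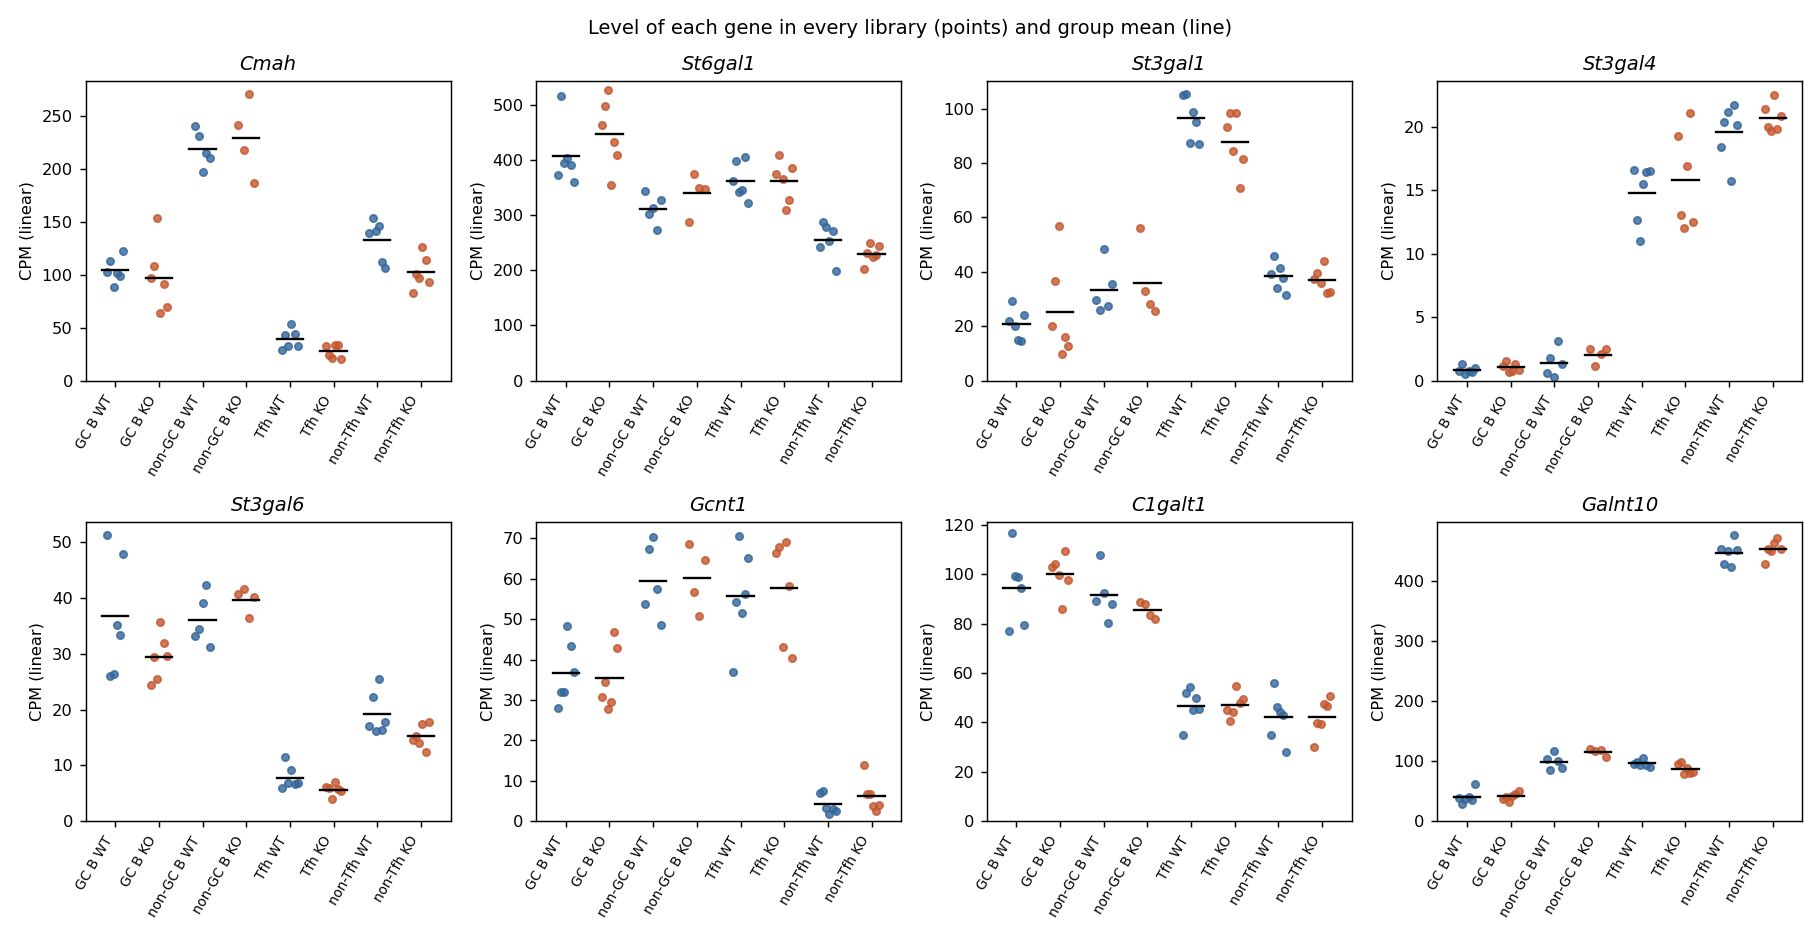
Each panel plots the CPM of 1 gene on a linear axis from 0, with a point for every library, a line at the group mean, and WT in blue and KO in orange. Galnt10 stands at 422 to 476 CPM in the non-Tfh libraries and at 120 CPM or less in all the others, Gcnt1 is at 13.9 CPM or less in every non-Tfh library, and St3gal4 is near 0 in all B cell groups.

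Per kilobase of exon, St6gal1 was the most highly expressed of the 8 genes in 6 of the 8 groups, with means there from 63.4 to 90.9 CPM per kb. In the non-Tfh groups Galnt10 was higher, at 74.9 CPM per kb in WT and 75.9 CPM per kb in KO, against 51.9 and 46.7 CPM per kb for St6gal1. St3gal4 had the lowest level in B cells, from 0.288 to 0.699 CPM per kb. The genes also differed in how far their levels ranged: the highest group mean was 1.95 times the lowest for St6gal1 and 2.38 times for C1galt1, but 11.2 times for Galnt10, 14.4 times for Gcnt1 and 24.6 times for St3gal4.

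Cmah (chr13:24327404-24477377, plus strand) encodes the enzyme that removes Neu5Ac from the pool available for capping. Its level was lower in GC B than in non-GC B cells and in Tfh than in non-Tfh cells. In GC B WT its level ranged from 88.6 through a median of 102.2 to 122.1 CPM, and the 5 non-GC B WT libraries were at 240.2, 231.3, 196.7, 215.2 and 210.7 CPM. The groups did not overlap, and the log2 difference was -1.002 (SE 0.083). In KO cells GC B ranged from 63.4 through 93.9 to 153.5 CPM and the 4 non-GC B libraries were at 241.9, 217.7, 270.5 and 186.5 CPM, a log2 difference of -1.18 (SE 0.21). In the T cells the gap was wider. Tfh WT ranged from 28.9 through 38.0 to 53.0 CPM and non-Tfh WT from 106.5 through 140.3 to 153.4 CPM, with a log2 difference of -1.77 (SE 0.15). Tfh KO ranged from 20.1 through 28.2 to 33.6 CPM and non-Tfh KO from 83.1 through 98.8 to 126.4 CPM, with a log2 difference of -1.89 (SE 0.15). Ordered by group mean, non-GC B cells of both genotypes were highest, GC B and non-Tfh groups were intermediate with overlapping ranges, and both Tfh groups were lowest.

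St6gal1 (chr16:23224740-23360350, plus strand), which makes the α2,6 linkage, differed in the opposite direction to Cmah and by less. GC B WT ranged from 360.5 through 392.1 to 516.3 CPM, and the 5 non-GC B WT libraries, at 344.2, 302.0, 311.8, 272.2 and 327.3 CPM, were all below them. The log2 difference was 0.45 (SE 0.10) in WT and 0.46 (SE 0.11) in KO, where the ranges overlapped. The sum of 6 plasma cell markers was also higher in GC B cells, with medians of 4737 CPM in WT and 4002 CPM in KO against 559.2 and 611.6 CPM in non-GC B cells, and its part in these differences was not tested. In T cells it was 0.51 (SE 0.09) in WT, with Tfh at 321.8 to 405.9 CPM and non-Tfh at 199.1 to 287.2 CPM, and 0.67 (SE 0.08) in KO. Every neighbouring pair of groups overlapped in the order of the St6gal1 levels.

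The 3 α2,3-sialyltransferases did not share a pattern. St3gal1 (chr15:67102875-67176830, minus strand), the core 1 capping enzyme, was highest in Tfh cells: Tfh WT ranged from 87.2 through 96.9 to 105.4 CPM and non-Tfh WT from 31.4 through 38.5 to 45.9 CPM. The log2 difference was 1.33 (SE 0.09) in WT and 1.26 (SE 0.10) in KO. In B cells the direction was the opposite, at -0.61 (SE 0.21) in WT and -0.45 (SE 0.45) in KO, and the libraries overlapped in both. The spread of St3gal1 in GC B KO was wide, from 9.75 through 17.9 to 56.7 CPM. St3gal4 (chr9:35046576-35119268, minus strand) was almost confined to T cells in these 8 groups: group means were 14.8 to 20.7 CPM in the T cell groups and 0.841 to 2.04 CPM in the B cell groups, where libraries held between 10 and 94 counts. St3gal6 (chr16:58468125-58524243, minus strand) was higher in B cells, with group means of 29.5 to 39.7 CPM. GC B WT, at 26.02 to 51.32 CPM, overlapped non-GC B WT, at 31.16 to 42.35 CPM. GC B KO, at 24.41 to 35.79 CPM, lay below non-GC B KO, at 36.36 to 41.59 CPM. Among T cells St3gal6 was lower in Tfh cells, at 6.04 through 6.81 to 11.5 CPM in WT against 16.1 through 17.4 to 25.6 CPM in non-Tfh WT. The log2 difference was -1.29 (SE 0.17) in WT and -1.42 (SE 0.13) in KO.

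Of the O-glycan enzymes, Galnt10 (chr11:57645442-57787514, plus strand), which starts chains, was lower in GC B and Tfh cells than in their counterparts. GC B WT ranged from 29.3 through 37.8 to 62.6 CPM, and the non-GC B WT libraries were at 102.8, 85.1, 116.0, 100.5 and 88.5 CPM. The log2 difference was -1.22 (SE 0.16) in WT and -1.43 (SE 0.11) in KO. In T cells, Tfh WT ranged from 89.6 through 94.6 to 105.3 CPM and non-Tfh WT from 422.3 through 450.0 to 475.6 CPM. There the log2 difference was -2.22 (SE 0.05) in WT and -2.36 (SE 0.07) in KO, and no Tfh library came near a non-Tfh library.

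Gcnt1 (chr19:17326141-17372844, minus strand), the core 2 branching enzyme, had the largest within-lineage difference of the 8 genes, and in opposite directions in the B and T cells. Tfh WT ranged from 36.9 through 55.3 to 70.7 CPM and non-Tfh WT from 1.83 through 3.14 to 7.54 CPM, where libraries held 69 to 273 counts. The log2 difference was 3.74 (SE 0.32) in WT and 3.22 (SE 0.34) in KO. GC B cells had less Gcnt1 than non-GC B cells: GC B WT ranged from 28.0 through 34.5 to 48.2 CPM, and the non-GC B WT libraries were at 53.7, 67.4, 70.4, 57.4 and 48.5 CPM. The log2 difference was -0.63 (SE 0.14) in WT and -0.71 (SE 0.16) in KO. C1galt1 (chr6:7844842-7875687, plus strand), the core 1 synthase, differed between lineages and little within them. Group means were 85.5 to 100.1 CPM in B cells and 42.1 to 47.0 CPM in T cells, and the log2 differences within a lineage were 0.11 (SE 0.11) and 0.29 (SE 0.07) for B cells and 0.16 (SE 0.15) and 0.16 (SE 0.12) for T cells, in WT and KO respectively.

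**Figure D2:**
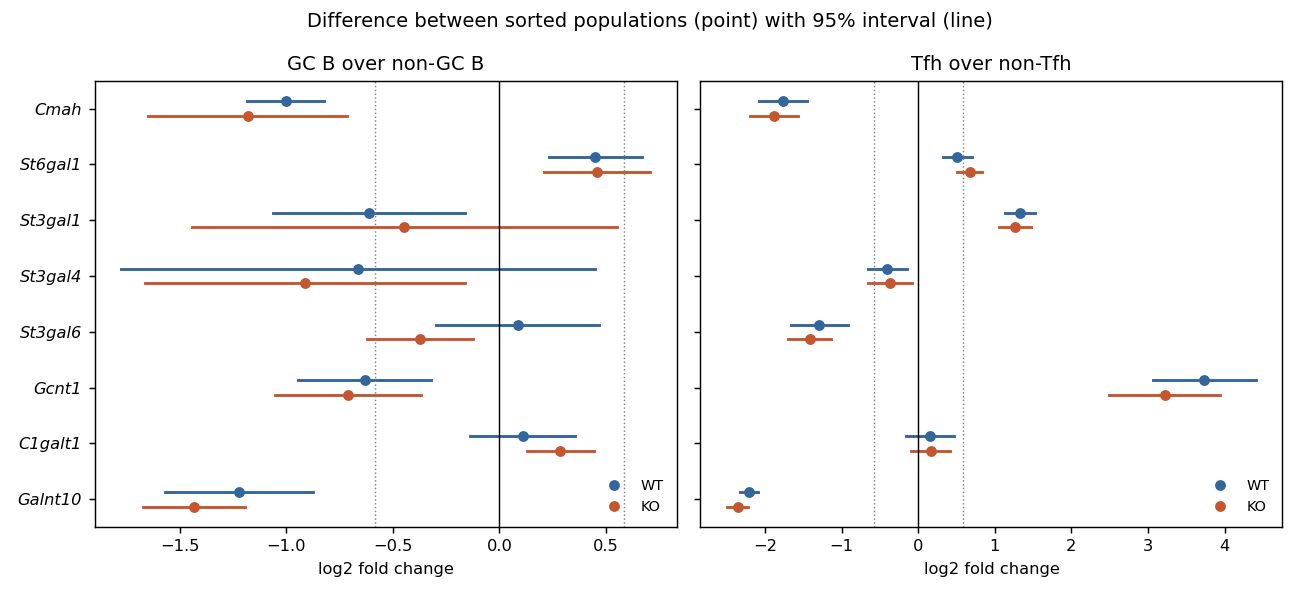
Points give the log2 fold change of each gene between 2 sorted populations and lines its 95% interval, GC B over non-GC B on the left and Tfh over non-Tfh on the right, WT in blue and KO in orange, with dotted lines at a fold of 1.5. Cmah and Galnt10 lie left of 0 in both panels, while Gcnt1 and St3gal1 lie left of 0 in B cells and right of 0 in T cells, where Gcnt1 reaches 3.74.

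The comparison the study was built for, KO against WT within each population, showed no change in any of the 8 genes that passed an adjusted p under 0.05 (edgeR's quasi-likelihood test, Benjamini-Hochberg over all genes) and a fold over 1.5. In GC B cells 0.0612% of all genes passed, in non-GC B cells 0.0537%, in Tfh cells 0.496% and in non-Tfh cells 0.114%, and none of these was among the 8 by edgeR, DESeq2 or limma-voom. At an unadjusted p under 0.05, edgeR's quasi-likelihood test counted 0 of the 8 in GC B cells, 1 in non-GC B cells, 3 in Tfh cells and 2 in non-Tfh cells, where 4.13%, 4.55%, 19.2% and 11.3% of all genes met that mark.

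The lowest p-values in T cells belonged to Cmah and St3gal6, both lower in KO. In Tfh cells Cmah was at 28.9 to 53.0 CPM in WT and 20.1 to 33.6 CPM in KO, with overlapping groups. Its log2 difference was -0.51 (SE 0.17, 95% interval -0.87 to -0.16), with an adjusted p of 0.114 by edgeR's quasi-likelihood test and 0.0373 by DESeq2, and its fold change was under 1.5 in both. In non-Tfh cells Cmah differed by -0.38 (SE 0.11, 95% interval -0.62 to -0.14), adjusted p = 0.202 by edgeR and 0.0542 by DESeq2. St3gal6 differed by -0.47 (SE 0.17, 95% interval -0.84 to -0.10) in Tfh cells, adjusted p = 0.160 by edgeR's test, with WT at 6.04 through 6.81 to 11.5 CPM and KO at 4.02 through 5.79 to 6.98 CPM. In non-Tfh cells St3gal6 differed by -0.33 (SE 0.13, 95% interval -0.61 to -0.05), adjusted p = 0.352 by the same test. The sum of the 10 B cell markers had a median of 582 CPM in Tfh WT and 270.4 CPM in Tfh KO, and both genes were expressed in B cells. The sum of 6 plasma cell markers was 239.4 to 287.6 CPM in Tfh KO. In Tfh WT it was 648, 558 and 399.7 CPM in replicates 4, 5 and 2, with Cmah at 53.0, 43.95 and 43.3 CPM. In Tfh WT replicates 1, 3 and 6 it was 282.4, 282.9 and 285.6 CPM, with Cmah at 28.9, 32.6 and 32.2 CPM. The part of these sums in the Cmah difference was not tested. With a B cell marker score as covariate, the Cmah difference in Tfh cells was -0.73 (SE 0.22) and its adjusted p was 0.219 by edgeR's test. The mean log2 CPM of the 10 B cell markers itself differed with genotype, at 1.521 to 5.055 in Tfh WT and -0.578 to 3.93 in Tfh KO. This fit therefore cannot cleanly separate the score from genotype, and over all genes 13 passed in it, against 67 without the score. Resting lymphocyte markers were lower in KO as well, and Cmah and St3gal6 were both higher in non-Tfh than in Tfh cells. All 4 of these markers had a lower mean in KO in both populations, but Ccr7 in non-Tfh cells differed by less than its spread. Its mean there was 1442 CPM (SD 149.1) in WT and 1416 CPM (SD 100.5) in KO. The sum of the 4 markers was 1096 to 1340 CPM in Tfh WT and 709.4 to 1120 CPM in Tfh KO. In non-Tfh cells the sum was 5126 to 5772 CPM in WT against 4521 to 5063 CPM in KO, where the groups did not overlap. The part of these markers in the differences was not tested.

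Galnt10 had an unadjusted p under 0.05 in 2 populations, with opposite signs: 0.23 (SE 0.10, 95% interval 0.02 to 0.44) in non-GC B cells and -0.14 (SE 0.07, 95% interval -0.28 to -0.004) in Tfh cells, with adjusted p-values of 0.981 and 0.248 by edgeR's test. St6gal1 differed by -0.0086 (95% interval -0.18 to 0.16) in Tfh cells and by 0.14 (95% interval -0.11 to 0.38) in GC B cells. The widest intervals were those of genes at low or uneven levels: Gcnt1 in non-Tfh cells (0.58, 95% interval -0.30 to 1.46), St3gal4 in non-GC B cells (0.56, 95% interval -0.76 to 1.87) and St3gal1 in GC B cells (0.28, 95% interval -0.56 to 1.12). A fold change over 1.5 between genotypes lay inside 10 of the 32 intervals of the 8 genes in 4 populations, these 3 and those of Cmah and St3gal6 in T cells included. In non-Tfh cells the sum of 6 Tfh markers was 225.5 to 346.6 CPM in WT and 205.4 to 469.8 CPM in KO. The part of these markers in the Gcnt1 value was not tested.

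**Figure D3:**
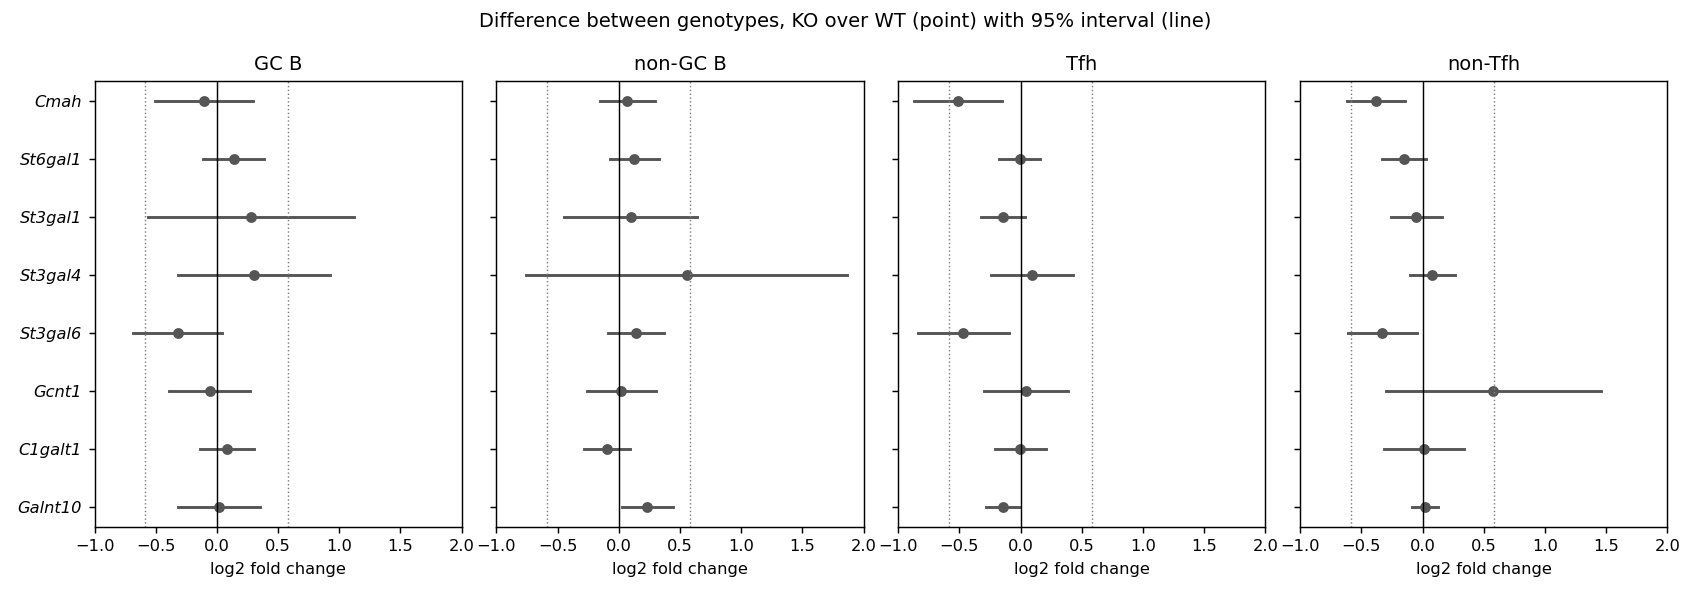
Points give the log2 fold change of each gene in KO over WT cells and lines its 95% interval, with 1 panel for each sorted population on a common axis and dotted lines at a fold of 1.5. Cmah and St3gal6 lie left of 0 in both T cell panels, and the intervals of Gcnt1 in non-Tfh cells and St3gal4 in non-GC B cells are the widest.

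Whether the genotype difference itself differed between a follicular population and its counterpart was tested as an interaction. With an adjusted p under 0.05, edgeR's quasi-likelihood test marked 0% of all genes for B cells and 0.0139% for T cells, and 0 of the 8 genes in either; DESeq2 and limma-voom also marked 0 of the 8. The count with an unadjusted p under 0.05 was 0 of the 8 in B cells and 1 in T cells, where 4.58% and 9.2% of all genes met that mark. That gene was Galnt10, with an interaction of -0.16 (SE 0.08, adjusted p = 0.525). For Cmah in T cells the interaction was -0.13 (95% interval -0.57 to 0.30).

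In the GC B KO libraries Cmah, St3gal1 and St6gal1 were higher where plasma cell markers were higher. In GC B KO replicates 1 to 3, which had the higher plasma cell marker sums, Cmah was at 96.8, 108.4 and 153.5 CPM, and in replicates 4 to 6 at 63.4, 90.9 and 69.4 CPM. St3gal1 was at 19.9, 36.7 and 56.7 CPM in replicates 1 to 3 and at 9.75, 15.8 and 12.7 CPM in replicates 4 to 6. St6gal1 was at 463.0, 496.6 and 526.3 CPM in replicates 1 to 3 and at 354.0, 433.0 and 409.0 CPM in replicates 4 to 6. For each of the 3 genes the libraries thus fell in the same order as their plasma cell marker sums. Galnt10 went the other way, at 37.1, 39.5 and 32.4 CPM in replicates 1 to 3 and 42.1, 45.5 and 50.0 CPM in replicates 4 to 6. St3gal6 was at 24.4, 29.5 and 25.5 CPM in replicates 1 to 3 and 35.8, 31.9 and 29.6 CPM in replicates 4 to 6. The remaining genes had no such division: St3gal4 was at 0.654 to 1.53 CPM, Gcnt1 at 27.7 to 46.75 CPM and C1galt1 at 86.13 to 109.3 CPM. Because the KO libraries fell into a higher and a lower set, no correlation is given for them. In the 6 GC B WT libraries, Pearson's r with the marker score (mean log2 CPM of the 6 markers) was 0.319 for Cmah (rho 0.143, exact permutation p = 0.55 and 0.803), 0.764 for St6gal1 (rho 0.257, exact permutation p = 0.146 and 0.658) and 0.866 for St3gal1 (rho 0.714, exact permutation p = 0.0167 and 0.136). With the 2 most distant libraries by score left out, Pearson's r came to -0.133, -0.208 and 0.78, and the lowest adjusted permutation p in GC B WT over 32 relations computed was 0.126. With the plasma cell marker score as a covariate, a fit added after these values were seen, the genotype difference in GC B cells was -0.08 (SE 0.09) for Cmah, 0.18 (SE 0.07) for St6gal1 and 0.23 (SE 0.13) for St3gal1, against -0.10 (SE 0.19), 0.14 (SE 0.11) and 0.28 (SE 0.39) without it, and no gene of the 8 passed.

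**Figure D4:**
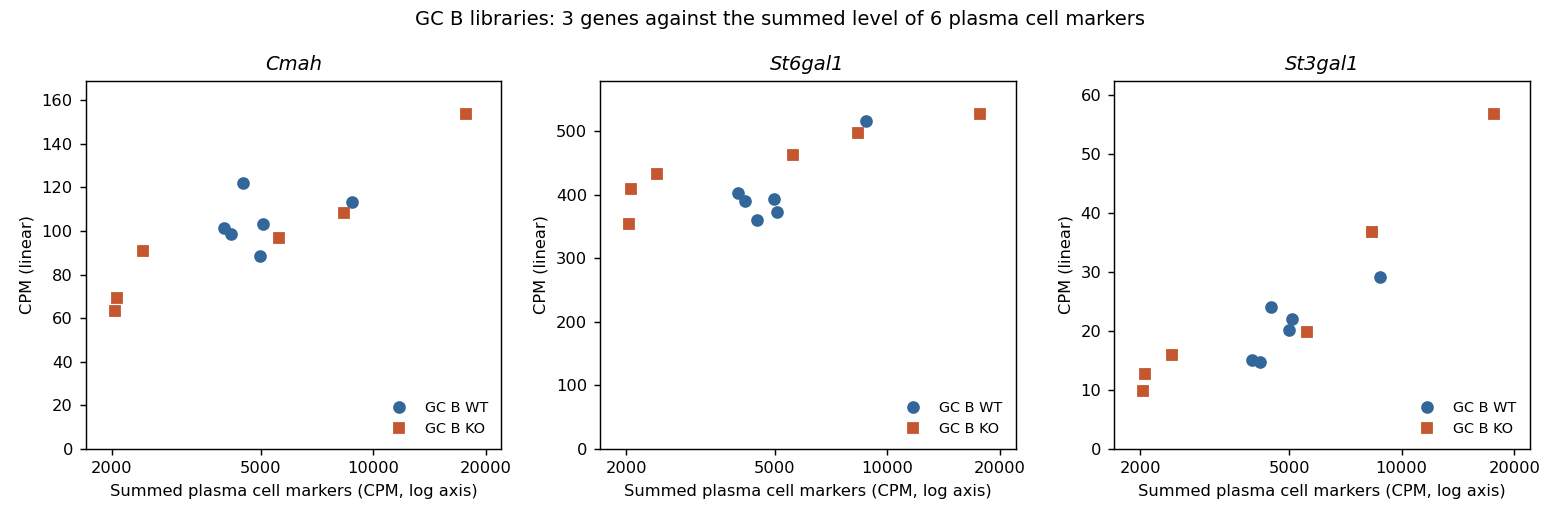
CPM of Cmah, St6gal1 and St3gal1 on linear axes from 0 against the summed CPM of 6 plasma cell markers on a log axis, with a point for each GC B library, WT as blue circles and KO as orange squares. Among the KO libraries all 3 genes are lowest at a marker sum of 2036 CPM and highest at 17640 CPM.

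A further 87 genes of glycosylation, with the carriers and receptors of the glycans, were counted in the same fits. None of them passed both thresholds between genotypes by edgeR's quasi-likelihood test in any population, out of 59 tested in GC B, 52 in non-GC B, 61 in Tfh and 54 in non-Tfh cells, while 2, 3, 16 and 13 of them had an unadjusted p under 0.05. These are 3.39%, 5.77%, 26.2% and 24.1% of those tested, against 4.13%, 4.55%, 19.2% and 11.3% of all genes. DESeq2 marked 2 in Tfh cells, the sialyltransferase St8sia6 at -1.38 (adjusted p = 0.00156) and the galectin Lgals3 at 0.65 (adjusted p = 0.00628), and 0 in the other populations, and limma-voom marked 0 throughout. Over all genes DESeq2 marked 191 of 13495 in Tfh cells, where edgeR's test marked 67. By edgeR's test St8sia6 in Tfh cells had an adjusted p of 0.0531, with mean levels of 7.99 CPM in WT and 3.09 CPM in KO. Selplg, the selectin ligand PSGL-1 that core 2 O-glycans decorate, differed by -0.49 on the log2 scale in Tfh KO cells (SE 0.11, adjusted p = 0.0447 by edgeR's test), under the fold threshold, with means of 468.5 CPM in WT and 334.4 CPM in KO. St8sia6 and Selplg were both higher in non-Tfh than in Tfh cells, as were the resting lymphocyte markers, whose sum had a median of 1272 CPM in Tfh WT and 894.6 CPM in Tfh KO; their part in these differences was not tested. The 3 genes named here were singled out after their values were seen.

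Between populations many of these genes passed. In GC B over non-GC B WT, 17 were higher and 22 lower of 57 tested (68.4% against 47.8% of all genes, 24.8% higher and 23.1% lower), and the median log2 difference was -0.12 against 0.002 for all genes. In Tfh over non-Tfh WT, 25 were higher and 8 lower of 60 (55% against 43.2% of all genes, 22.8% higher and 20.4% lower), with a median of 0.45 against 0.0003. The KO counts were 16 higher and 21 lower of 58 for B cells, where 48.2% of all genes passed (25.3% higher and 22.9% lower), and 23 higher and 7 lower of 59 for T cells, where 43.4% passed (22.3% higher and 21.1% lower). The counts and medians describe the list and were not tested as a set.

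In the list headed O-glycan cores, chain extension and caps, 6 genes were higher and 6 lower of 16 in GC B WT. In Tfh WT 11 were higher and 1 lower of 16. The share of this list that passed was 75% in each, against 47.8% of all genes in GC B WT and 43.2% in Tfh WT. This list is not confined to O-glycans. It holds Fut8, and its extension and cap genes were not sorted by the kind of glycan they act on. Gcnt3, which like Gcnt1 makes core 2, rose in GC B WT from a mean of 0.0399 to 6.16 CPM (log2 difference 7.27, SE 0.62), and in Tfh WT it averaged 1.41 CPM while all 6 non-Tfh WT libraries had 0 counts, at least 102-fold higher against a limit of 3 counts over the group. The fucosyltransferase Fut4 rose in GC B WT from 0.140 to 4.03 CPM and in Tfh WT from 0.185 to 2.48 CPM. Fut8, which adds the core fucose of N-glycans, rose by 2.65 (SE 0.23) in GC B WT, from 21.9 to 131.9 CPM. Also higher in GC B WT were the fucosyltransferase Fut1 (4.78, SE 0.87), the sulfotransferase Chst1 (3.90, SE 0.90) and the galactosyltransferase B4galt2 (3.67, SE 0.78), all at mean levels of 3.05 CPM or less. The chain extension genes B3gnt5, B3gnt8 and B3gnt7 fell in GC B WT by 2.33, 2.20 and 1.38 on the log2 scale, and B3gnt5 went from 286.8 to 54.5 CPM. In Tfh WT the sulfotransferase Chst2 rose from 5.27 to 64.9 CPM (3.62, SE 0.34), the branching enzyme Gcnt2 from 0.190 to 2.09 CPM, and the galactosyltransferase B4galt3 fell from 36.0 to 20.2 CPM.

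Among the other sialyltransferases, 2 were higher and 3 lower of 8 in GC B WT and 5 higher and 1 lower of 10 in Tfh WT. The gene with the largest fall in Tfh cells was St8sia6, which adds α2,8-linked sialic acid, at 209.1 CPM in non-Tfh WT and 7.99 CPM in Tfh WT (log2 difference -4.70, SE 0.29). St6galnac3 fell in GC B WT from 11.6 to 2.46 CPM. Of the genes that start O-glycans, 2 were higher and 3 lower of 8 in GC B WT and 2 higher and 2 lower of 9 in Tfh WT. Galnt6, like Galnt10, was lower in GC B and Tfh cells than in their counterparts. It fell from 69.9 to 21.8 CPM in GC B WT and from 526.0 to 319.5 CPM in Tfh WT. Galnt3 rose in Tfh WT from 0.0277 to 1.35 CPM. Of the genes of sialic acid supply and removal, 2 were higher and 1 lower of 9 in each lineage. In GC B WT and Tfh WT, 62.5% and 60% of the other sialyltransferases passed, and 62.5% and 44.4% of the genes that start O-glycans. For supply and removal the share was 33.3% in each. Of all genes 47.8% passed in GC B WT and 43.2% in Tfh WT.

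Of the carriers and receptors, 3 were higher and 7 lower of 11 in GC B WT and 5 higher and 2 lower of 11 in Tfh WT. These are 90.9% and 63.6% of them, where 47.8% and 43.2% of all genes passed. Selplg fell in Tfh WT from 1176 to 468.5 CPM. Mgat4a, an N-glycan branching enzyme, fell in Tfh WT from 21.01 to 5.52 CPM (log2 difference -1.92, SE 0.26). Cd22, the α2,6-sialic acid receptor of B cells, rose in Tfh WT from 8.17 to 179.3 CPM (log2 difference 4.46, SE 0.24). As a share of its median in non-GC B WT, Cd22 was at 4.39% to 10.9% in the 12 Tfh libraries, where the sum of B cell markers reached 0.22% to 2.21%.

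**Figure D5:**
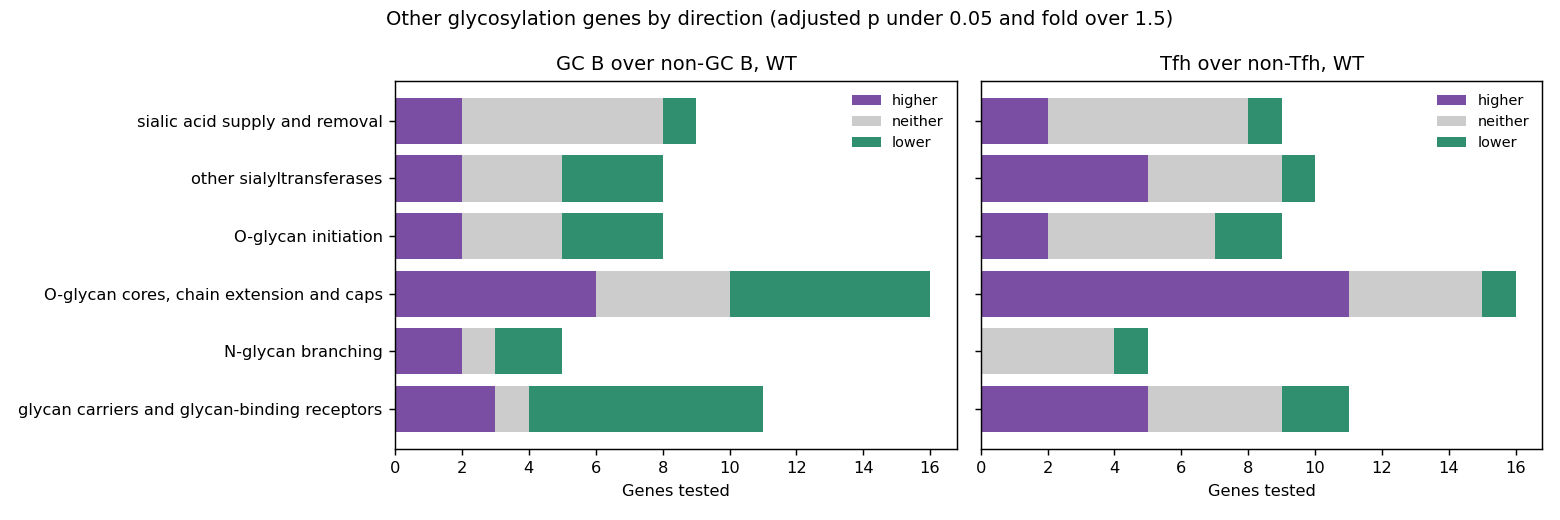
Stacked bars count the genes tested in 6 groups of other glycosylation genes that were higher (purple), lower (green) or neither (grey) at an adjusted p under 0.05 and a fold over 1.5, for GC B over non-GC B WT and Tfh over non-Tfh WT. In the row of O-glycan cores, chain extension and caps, 11 of 16 genes are higher in Tfh cells, against 6 of 16 in GC B cells. That list is not confined to O-glycans. Of all genes, 47.8% passed in GC B WT and 43.2% in Tfh WT.

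Likeness in pattern was measured for each of the 8 genes as Pearson's r of log2 CPM across all 45 libraries, over 9914 genes with a mean of at least 5 CPM. These libraries share lineage, day and sort, so the values describe the pattern over groups and carry no test. Galnt10 was most like Arhgef1 (r = 0.982), Klhdc1 (0.980) and Smurf1 (0.979). Gcnt1 was most like Cxcr5 (0.961), itself used in the T cell gates, then Marcks (0.960) and Casp1 (0.960). Cmah was most like Card6 (0.960), the integrin gene Itga4 (0.954) and Mef2d (0.945). St3gal4 was most like Ms4a4b (0.973), the T cell factor gene Tcf7 (0.970) and Gm43352 (0.968). St3gal6 was most like Bmyc (0.961), Tec (0.958) and As3mt (0.955), and C1galt1 like Gxylt1 (0.960) and Pik3c2b (0.947). St3gal1 was most like Tcf12 (0.929), Tor2a (0.914) and Eloa (0.913). The closest values were lowest for St6gal1, with Nsmaf (0.883), the α1,3-galactosyltransferase gene Ggta1 (0.883) and Chd9 (0.878).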

How the data were processed

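RNA of 45 sorted libraries was captured as polyA RNA and sequenced by the study with a stranded kit. Per the labels and the study's methods, cutadapt 2.10 was used for trimming and STAR 2.5.3 for alignment to mm10, and the authors deposited RSEM 1.3.0 expected counts per gene, 8.83% of which were not whole. Here the expected counts were rounded, filtered with filterByExpr, scaled by TMM and tested with edgeR 4.0.16 (quasi-likelihood, without a replicate block) in R 4.3.3. A gene passed with a Benjamini-Hochberg adjusted p under 0.05 and a fold over 1.5 (interactions, adjusted p only). Each SE is the log2 difference over the root of the F statistic, and 95% intervals use the t distribution. Only the groups compared entered a fit. DESeq2 1.42.0, limma-voom (limma 3.58.1), other scalings, no filter, all groups in one fit, the replicate block, marker scores as covariates and leaving out each library were tried. The deviations of same-numbered Tfh and non-Tfh libraries correlated above 0 in every pair, at 0.123 to 0.344 in KO and 0.0684 to 0.44 in WT. Same-numbered non-Tfh KO and WT libraries, which differ in genotype and so in animal, ranged from -0.0442 to 0.372. These values therefore cannot show whether a number marks a shared animal, and the labels do not name one.

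The 8 genes and the gene lists were chosen with earlier results of these data known. The text names all 8 genes, up to 6 listed genes per direction with the largest passing fold in the WT population comparisons, the 3 genes most alike to each, S1pr4 and defining markers; some genes under this rule are not reported here. Motifs, and the fit that uses plasma cell markers, were chosen after values were seen. Of the listed genes, 87 had a single row under their symbol; Galnt20 was not found and St6galnac2 had 2 rows, and both were left out. Gene positions and exon lengths are those of GENCODE M21 (mm10), whose symbols the table uses, and start regions those of RefSeq (GRCm38.p6). The study's methods name a later GENCODE release, so which annotation the counts used is not settled, and levels per kilobase rest on the M21 lengths. Intervals cover the spread between libraries. Tests were checked on simulated data.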

Additional observations from a re-analysis of the deposited data

Results flagged for a closer look

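In 3 of 64 combinations of gene and group, the highest library lay far from the other libraries of its group, by Dixon's test at the 95% level, which chance gives in about 1 of 20 groups. St6gal1 in GC B WT was at 516.3 CPM in replicate 2, and the next library was at 402.8 CPM. That library also had the highest plasma cell marker sum of its group, 8758 CPM, and the part of this in the value was not tested. Galnt10 in GC B WT was at 62.6 CPM in replicate 6, and the next was at 40.5 CPM. Replicate 6 had the highest sum of 4 resting lymphocyte markers of its group, 1474 CPM, and the lowest sum of 7 GC B markers, 1243 CPM. The part of these sums in the Galnt10 value was not tested. Gcnt1 in non-Tfh KO was at 13.9 CPM in replicate 1, and the next was at 6.76 CPM. In that library the sum of 6 Tfh markers was 469.8 CPM, the highest of its group, and the part of this in the value was not tested.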

How the results depend on the processing

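Between genotypes and for the interactions, no alternative tried brought any of the 8 genes past the thresholds. Of 376 such values with every library kept, 357 had the same sign and 19 changed sign. With a T cell marker score as covariate Gcnt1 in GC B cells was 0.032, and with the plasma cell marker score (added after the data were seen) Galnt10 was -0.030. With the replicate block Gcnt1 in non-GC B cells was -0.043. In Tfh cells C1galt1 was 0.0015 with size factors by median of ratios, 0.0016 with DESeq2, 0.0016 with limma-voom, 0.0038 with all 8 groups in one fit, 0.0050 with the replicate block and 0.019 with a B cell marker score as covariate. The B cell marker score moved St6gal1 to 0.022, St3gal4 to -0.17 and Gcnt1 to -0.27 in Tfh cells, and Gcnt1 to -0.66 and C1galt1 to -0.013 in non-Tfh cells. For interactions, St6gal1 in B cells was -0.019 on total counts, St3gal1 in B cells -0.014 with limma-voom, and C1galt1 in T cells 0.0031 with size factors by median of ratios, 0.0033 with DESeq2 and 0.0013 with the replicate block. The causes were not tested.

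Leaving out each library in turn changed signs within these ranges of log2 difference: in GC B cells Galnt10 -0.054 to 0.18, Gcnt1 -0.16 to 0.023 and St3gal1 -0.15 to 0.44; in non-GC B cells Cmah -0.019 to 0.15, Gcnt1 -0.046 to 0.095 and St3gal1 -0.21 to 0.27; in Tfh cells C1galt1 -0.075 to 0.042, Gcnt1 -0.053 to 0.12, St3gal4 -0.014 to 0.16 and St6gal1 -0.052 to 0.032; in non-Tfh cells C1galt1 -0.083 to 0.10 and St3gal1 -0.11 to 0.0058. Interactions ranged in B cells from -0.17 to 0.016 for Gcnt1, -0.23 to 0.48 for St3gal1, -0.77 to 0.021 for St3gal4 and -0.054 to 0.099 for St6gal1, and in T cells from -0.11 to 0.086 for C1galt1, -0.085 to 0.082 for St3gal4 and -0.23 to 0.0079 for St3gal6. Cmah in Tfh cells stayed between -0.58 and -0.41, with adjusted p from 0.0977 to 0.224.

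The number of other glycosylation genes passing between genotypes in Tfh cells was 0, and became 2 with DESeq2, 1 with all 8 groups in one fit (St8sia6), 1 with the replicate block (Lgals3) and 0 to 2 on leaving out each library. Over all genes 67 passed in the main fit, 191 with DESeq2, 153 with all 8 groups in one fit and 46 with the replicate block. Of 256 population values under the other alternatives, 255 moved by less than 1 SD between replicates. The sign changed for St3gal6 in GC B over non-GC B WT alone, from 0.087 to below 0 on total counts, to -0.036 with the replicate block and to -0.044 without GC B WT replicate 1. Deviations of same-numbered libraries correlated above 0 in every pair only for Tfh with non-Tfh cells (0.123 to 0.344 in KO and 0.0684 to 0.44 in WT). The lowest correlation elsewhere was -0.267, between Tfh KO and Tfh WT. In Tfh over non-Tfh KO the replicate block left the count of other glycosylation genes passing at 30. Without the low-count filter the median over all genes shifted to -0.36 in GC B over non-GC B WT. The level of St3gal4 in B cells rests on 10 to 94 counts per library.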
